A study of Rattus norvegicus with 10 samples.

Results

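Calcium cycling genes of heart muscle were followed through heat acclimation, its loss and its return in the left ventricle of albino Sabra rats. The set was a written list of 10 genes of the sarcoplasmic reticulum and calcium handling, and the 9 that had a probe set with a single gene symbol are described here, out of 14324 genes measured. The tenth, Sri (sorcin), was not analysed here. Each of 5 groups had 2 arrays, and each array carried total RNA of a separate pool of 5 animals. Control rats were untreated and 1 month old. AC2d rats had been kept at 34 °C for 2 days (also 1 month old) and AC30 rats for 30 days (2 months old). DeAC rats were acclimated at 34 °C for 30 days and then deacclimated at 24 °C for 30 days. ReAC rats were returned to 34 °C for 2 days after that, and rats of both groups were 3 months old. The length of their first heat was read from the order of phases in the treatment protocol. Animals were 3 weeks old when the experiment began. Only AC2d with control and ReAC with DeAC shared a labelled age, so that heat history and age cannot be told apart in the other comparisons. Values are log2 signals of a gene's probe set, where a difference of 0.1 is a change of about 7.18%. Changes are differences of group means ± SE with n = 2 pools per group, tested with limma and adjusted over all 14324 genes, with an adjusted p under 0.05 as the threshold for a call. The SE came from 1 spread per gene shared by all 10 arrays.

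At each heartbeat, calcium that enters the muscle cell through L-type channels opens ryanodine receptors, and these release far more calcium from the sarcoplasmic reticulum to the contractile filaments. The muscle relaxes when the reticular pump SERCA takes the calcium back and the sodium-calcium exchanger carries the rest out of the cell. Phospholamban, kinases and small calcium-binding proteins set the speed of this cycle, and junctophilin holds the cell membrane and the reticulum close enough together for it to start.

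Jph2, the junctophilin of heart muscle, changed most clearly among the 9 genes. Its level was lower in every group taken from the heat and higher after 30 days without heat. The pump Atp2a2, its inhibitor Pln, the release channel Ryr2 and the kinase Camk2d stayed within 0.115 log2 units of control in each group mean. The largest of these differences, Pln in ReAC, did not pass in the reported fit but passed in several alternatives. In the limma F test over the 5 groups, 5 of the 9 genes passed (Jph2, S100a1, Trdn, Casq2 and Slc8a1), against a background of 22.2% of all genes. These 5 calls differed in how far they held, since Jph2 passed in all 18 of the fits made (the reported fit and 17 alternatives), S100a1 in 13, Trdn in 12, Casq2 in 10 and Slc8a1 in 6. All 9 genes were bright, from percentile 82.4 of signal among all genes (S100a1) to 99.98 (Atp2a2). The backgrounds given here cover all genes and are not matched for signal. With the 40% dimmest genes left out, 2559 of 8594 passed in DeAC against AC30, beside 2478 of 14324 in the reported fit. The arrays are of bulk tissue, so fewer cells of a type and less RNA per cell cannot be told apart.

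**Figure D1:**
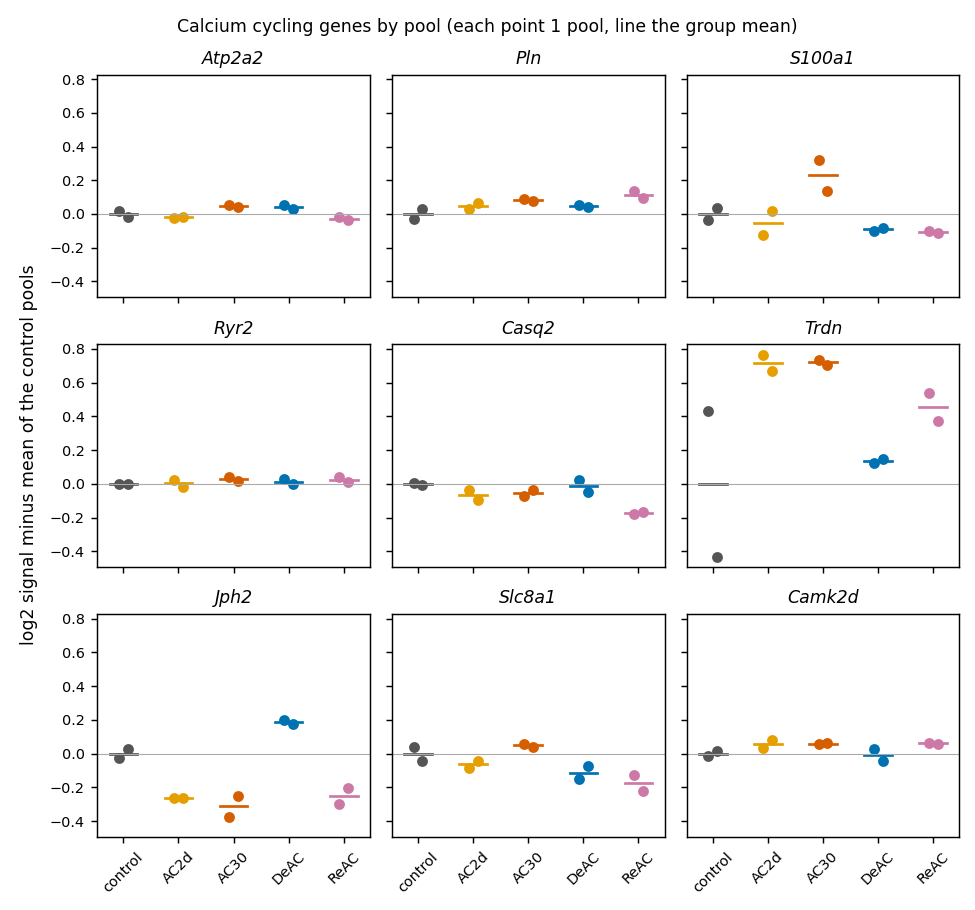
Log2 signal of the 9 calcium cycling genes in each pool, less the mean of the control pools (points, 2 pools per group; short lines, group means; the same vertical scale in all panels). Jph2 lies below control in AC2d, AC30 and ReAC and above it in DeAC, Trdn differs by 0.87 log2 units between the control pools, and Atp2a2, Pln, Ryr2 and Camk2d lie close to 0 throughout.

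The tissue label was checked against marker genes. Mean log2 levels of 10 ventricular muscle markers lay between 12.73 and 12.91 on every array, and 3 measured skeletal muscle paralogs averaged between 5.04 and 5.29. Single ventricular markers did differ between groups, with Myh7 averaging 11.50 in control and 13.28 in ReAC. Myh7, Myh6, Myl3, Ckm and Mybpc3 passed the F test, and the other ventricular markers did not. Of 8 atrial markers 6 were measured (Sln, Myl7, Nppa, Bmp10, Mybphl and Dkk3). Their mean level was 11.18 and 9.30 in the control pools, 11.44 and 11.51 in AC2d, 11.97 and 11.84 in AC30, 7.01 and 7.04 in DeAC, and 10.61 and 10.66 in ReAC. The mean of 5 adipocyte markers was 6.93 and 5.03 in control, 6.27 and 6.19 in AC30, and between 4.80 and 5.28 on the other arrays. That of 3 smooth muscle markers was 8.29 and 7.43 in control, 8.78 and 8.40 in AC30, and between 7.17 and 7.79 on the others. Endothelial and fibroblast marker means lay between 8.83 and 9.24 and between 10.21 and 10.83. Between both control pools 57 genes differed by over 1 log2 unit, and in the other groups at most 1 did so. Median signals of the arrays as deposited ranged from 5.95 to 6.10.

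Jph2 read 11.00 and 11.05 in control (log2 signal of either pool), 10.76 and 10.76 in AC2d, 10.65 and 10.77 in AC30, 11.23 and 11.20 in DeAC, and 10.73 and 10.82 in ReAC. All 6 pools taken at 34 °C (10.65 to 10.82) therefore lay below all 4 other pools (11.00 to 11.23), an ordering noticed after the values were seen and found in 2.83% of all genes. It was the same in the values as deposited (highest heated pool 10.85, lowest other pool 10.99) and after median scaling (10.89 and 10.97). In the order of the group means AC30, AC2d and ReAC came first and overlapped as neighbours, then control, then DeAC, with no overlap at either of the last steps.

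Jph2 fell by 0.26 ± 0.05 after 2 days of heat (adjusted p = 0.0141), being the only 1 of 9 genes that passed there, against a background of 2.53%. The call ended without control replicate 2 (adjusted p = 0.0517), AC2d replicate 1 (0.154) or AC2d replicate 2 (0.131), after median scaling (0.133) and without the mean-variance trend (0.16). After 30 days of heat Jph2 was 0.31 ± 0.05 below control (adjusted p = 0.00204, at most 0.0272 when any single array was left out). In DeAC it was 0.19 ± 0.05 above control (adjusted p = 0.0356), again the only 1 of 9 genes to pass (background 8.22%). That call was lost when single arrays were left out in 5 of 10 cases, namely without control replicate 1 (adjusted p = 0.134), either AC2d pool (0.0646 each), DeAC replicate 1 (0.141) or DeAC replicate 2 (0.13). The step from AC30 to DeAC was a rise of 0.50 ± 0.05 (1.42-fold, adjusted p = 2.25e-05) and the step from DeAC to ReAC a fall of 0.44 ± 0.05 (to 0.737 of the DeAC level, adjusted p = 0.000328). These calls held with each array left out, with highest adjusted p of 0.000667 and 0.0136. ReAC lay 0.25 ± 0.05 below control (adjusted p = 0.00605), a call that ended without ReAC replicate 1 (0.0913) and after median scaling (a change of -0.15, adjusted p = 0.228).

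The comparisons share groups, so the 6 calls of Jph2 are not separate pieces of evidence. Its 2-day change on return to heat differed from its 2-day change at the start by -0.18 ± 0.07, which did not pass (adjusted p = 0.525). In limma 0 of the 9 genes passed for this difference between responses, with 1 at an unadjusted p under 0.05, and the background was 0.3%. Atrial markers moved opposite to Jph2 between AC30 and DeAC, with 6 of 6 lower in DeAC, and 5 of 6 were higher in ReAC than in DeAC. With the mean of 5 atrial markers (without Sln) as a covariate, the Jph2 change was 0.35 in DeAC against AC30 (adjusted p = 0.696) and -0.33 in ReAC against DeAC (adjusted p = 0.517). In the same fit it was -0.23 in AC2d against control (adjusted p = 0.119), -0.26 in AC30 (0.139), 0.09 in DeAC (0.882) and -0.24 in ReAC against control, which passed (0.00406). Over all genes the covariate fit passed 104 in DeAC against AC30 and 125 in ReAC against DeAC, where the reported fit passed 2478 and 560. Against control it passed 277 in AC2d, 227 in AC30, 208 in DeAC and 1807 in ReAC (reported fit 362, 1222, 1178 and 1564). The loss of calls with the covariate was thus not particular to Jph2. All 8 fibroblast markers and all 3 measured smooth muscle markers were also lower in DeAC than in AC30, as were 7.45% of all genes. The part of atrial tissue in the Jph2 differences was not tested beyond this fit, and that of the other cell types was not tested.

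**Figure D2:**
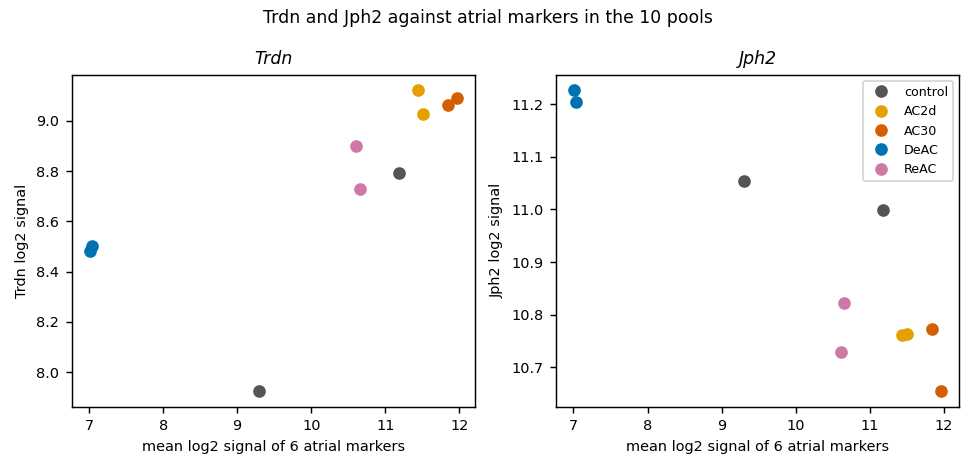
Log2 signal of Trdn (left) and Jph2 (right) against the mean log2 signal of 6 atrial markers in each of the 10 pools, coloured by group. The control pool with the lower atrial level (9.30) has the lowest Trdn level (7.92), the DeAC pools combine the lowest atrial levels (7.01 and 7.04) with Trdn levels of 8.48 and 8.50, and Jph2 is highest in the DeAC pools.

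Jph2 is shown with Atp2a2 at the level of sequence as the clearest mover and a gene with no call. Each window spans 250 bases before to 50 bases after 1 start site that the RefSeq-derived window table uses for the gene (rat build GRCr8), and capitals mark the 50 bases from that site on. The site of Atp2a2 is the outer start of the annotated gene, whereas that of Jph2 lies 757 bases inside the annotated gene, so its whole window is within the gene. Jph2 lies at chr3:172477872-172478171 on the minus strand and Atp2a2 at chr12:39733269-39733568 on the plus strand.
Jph2: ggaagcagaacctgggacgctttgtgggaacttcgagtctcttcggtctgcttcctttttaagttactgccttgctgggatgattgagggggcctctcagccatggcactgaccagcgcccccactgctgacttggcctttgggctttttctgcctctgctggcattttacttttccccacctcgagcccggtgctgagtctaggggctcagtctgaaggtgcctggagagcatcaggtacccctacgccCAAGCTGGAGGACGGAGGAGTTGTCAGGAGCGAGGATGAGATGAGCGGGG
Atp2a2: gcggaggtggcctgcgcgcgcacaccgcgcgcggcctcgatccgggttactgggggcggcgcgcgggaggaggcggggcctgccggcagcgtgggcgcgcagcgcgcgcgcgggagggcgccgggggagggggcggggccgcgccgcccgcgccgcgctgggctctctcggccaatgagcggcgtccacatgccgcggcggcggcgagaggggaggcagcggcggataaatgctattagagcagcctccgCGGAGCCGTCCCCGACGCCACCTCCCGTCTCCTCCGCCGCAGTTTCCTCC
The bases G and C made up 58% of the Jph2 window and 79% of the Atp2a2 window. Windows were found for 9 of the 10 listed genes (all but S100a1), and in 6 of them the site lies inside the annotated gene, from 227 bases (Camk2d) to 48061 bases (Slc8a1) from its outer start. The paired heat shock element cores GAANNTTC and TTCNNGAA, searched on both strands, matched 0 of these 9 windows, against 8.59% and 8.77% of 33469 rat windows. The E-box CANNTG was present in 6 of the 9, Atp2a2 among them and Jph2 not, against 72.1% of all windows. These matches describe letters in a short window and nothing more.

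Trdn encodes triadin, which anchors calsequestrin to the ryanodine receptor. It read 8.79 and 7.92 in control, 9.12 and 9.03 in AC2d, 9.09 and 9.07 in AC30, 8.48 and 8.50 in DeAC, and 8.90 and 8.73 in ReAC. The control pools differed more from each other (by 0.87) than the pools of any other group did for any of the 9 genes. All AC2d and AC30 pools lay above both control pools, whereas the DeAC and ReAC levels overlapped the control range.

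Trdn was 0.72 ± 0.18 above control in AC30 (adjusted p = 0.0253), where it and Jph2 made 2 of 9 genes that passed (background 8.53%). In AC2d the change was also 0.72 but did not pass (adjusted p = 0.0551, with 0.28 and 0.0949 without control replicate 2 and 1.15 and 3.16e-07 without control replicate 1). The AC30 change was 0.29 without control replicate 2 (adjusted p = 0.056) and 1.15 without control replicate 1, and the call also ended without AC30 replicate 1 (0.136) or AC30 replicate 2 (0.0845). From AC30 to DeAC Trdn was lower by -0.58 ± 0.18 (adjusted p = 0.0402), and this held, among 10 fits with an array left out, only in the 2 that lacked a control pool. It ended in the values as deposited (adjusted p = 0.07) as well. DeAC against control was 0.14 and did not pass, but it was 0.57 without control replicate 1 (adjusted p = 0.000669) and -0.30 without control replicate 2 (0.0294), so that the choice of control pool turned its direction. ReAC against control was 0.46 with both pools, 0.89 without control replicate 1 and 0.02 without control replicate 2. ReAC against DeAC was 0.32 and passed when either control pool was left out (adjusted p = 0.00851 and 0.00771), though not with both (0.425). With the atrial covariate the AC30 change became -0.05 (adjusted p = 0.962) and the change from AC30 to DeAC turned to 1.63 (adjusted p = 0.0056). Trdn is the only 1 of the 9 genes that the authors' deposited table of 651 fold changes holds, with 1.64 in AC2d, 1.65 in AC30, 1.15 in DeAC and 1.43 in ReAC against control.

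Casq2 makes cardiac calsequestrin, the store of calcium inside the reticulum. It read 12.49 and 12.48 in the control pools, 12.45 and 12.39 in AC2d, 12.41 and 12.45 in AC30, 12.51 and 12.44 in DeAC, and 12.31 and 12.32 in ReAC. Both ReAC pools lay below all others, and the remaining groups overlapped as neighbours in the order of their means.

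In ReAC, Casq2 fell by 0.17 ± 0.04 relative to control (adjusted p = 0.0126), and with Jph2 it made 2 of 9 that passed (background 10.9%). This call ended without ReAC replicate 1 (adjusted p = 0.0977) or ReAC replicate 2 (0.0808), in the values as deposited (0.0705) and after median scaling (-0.06, 0.531). Against DeAC the change was -0.16 ± 0.04 (adjusted p = 0.0398), where Casq2 and Jph2 were again 2 of 9 (background 3.91%). Leaving out any DeAC, ReAC or AC2d pool ended the latter call (adjusted p from 0.0703 to 0.244), as did the deposited values (-0.10, 0.233) and median scaling (-0.12, 0.406).

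Ryr2, the release channel itself, read 12.14 and 12.14 in control, 12.17 and 12.13 in AC2d, 12.19 and 12.16 in AC30, 12.17 and 12.14 in DeAC, and 12.19 and 12.15 in ReAC. All groups overlapped their neighbours in level. Over the 6 comparisons its change lay between -0.02 and 0.03, with 95% intervals inside -0.10 and 0.11, and the smallest adjusted p was 0.742.

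Atp2a2 encodes SERCA2, the calcium pump of the reticulum. It read 13.29 and 13.25 in the control pools, 13.25 and 13.25 in AC2d, 13.33 and 13.31 in AC30, 13.32 and 13.30 in DeAC, and 13.25 and 13.23 in ReAC. Its changes ranged from -0.07 to 0.05 with 95% intervals inside -0.14 and 0.12 (smallest adjusted p = 0.356), so larger changes of the array signal lay outside these intervals. The highest signal of any gene on these arrays was 13.67. How far a probe set near that end of the scale, as those of Atp2a2 and Pln are, can still show a rise was not tested.

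Pln, phospholamban, slows SERCA2 until it is phosphorylated. Its level was 13.13 and 13.19 in control, 13.19 and 13.22 in AC2d, 13.25 and 13.24 in AC30, 13.22 and 13.20 in DeAC, and 13.30 and 13.25 in ReAC. Both ReAC pools lay above both control pools, at a difference of 0.11 ± 0.04 that did not pass (adjusted p = 0.0589). It did pass in the values as deposited (0.13, adjusted p = 0.029) and after median scaling (0.19, 0.0269). Median scaling also moved the median change of all genes here, to 0.056 from -0.006 in the reported fit. The Pln difference passed as well with the dimmest genes left out (0.046), with averaged probe sets (0.0494) and with the atrial covariate (0.0271). With 1 array left out in turn it ran from 0.09 to 0.14. In the F test over the 5 groups Pln passed in 1 of 18 fits. Within each array, Atp2a2 less Pln differed from the control mean by 0.05 and -0.05 in the control pools, -0.05 and -0.08 in AC2d, -0.03 and -0.03 in AC30, -0.003 and -0.01 in DeAC, and -0.15 and -0.13 in ReAC. ReAC held the lowest values of this difference, which was not tested.

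S100a1 is a small calcium-binding protein that stimulates SERCA2 and the ryanodine receptor. It read 8.65 and 8.73 in the control pools, 8.57 and 8.71 in AC2d, 9.01 and 8.83 in AC30, 8.59 and 8.61 in DeAC, and 8.59 and 8.58 in ReAC. Both AC30 pools were the highest, and control, AC2d and DeAC overlapped as neighbours. From AC30 to DeAC the level fell by 0.32 ± 0.07 (adjusted p = 0.00773). With Trdn and Jph2 this made 3 of 9 genes that passed there (background 17.3% of all genes, and 2559 of 8594 with the 40% dimmest left out). The call ended without AC30 replicate 1 (adjusted p = 0.0954) and after median scaling (-0.18, adjusted p = 0.21). AC30 against control was 0.23 and did not pass (adjusted p = 0.0739).

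Slc8a1, the sodium-calcium exchanger, carries calcium out of the cell. It read 10.12 and 10.04 in control, 9.99 and 10.04 in AC2d, 10.14 and 10.12 in AC30, 9.93 and 10.01 in DeAC, and 9.95 and 9.86 in ReAC. Neighbouring groups overlapped at every step of this order. The exchanger passed the F test (adjusted p = 0.0415) and no comparison between groups, the nearest being ReAC against control (-0.17 ± 0.05, adjusted p = 0.0558) and DeAC against AC30 (-0.16 ± 0.05, adjusted p = 0.0564).

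Camk2d, the main calcium-calmodulin kinase of the heart, phosphorylates phospholamban and the ryanodine receptor. It read 9.59 and 9.62 in control, 9.64 and 9.68 in AC2d, 9.66 and 9.66 in AC30, 9.63 and 9.56 in DeAC, and 9.67 and 9.66 in ReAC. All 6 heated pools (9.64 to 9.68) lay above the 4 others (9.56 to 9.63), as in 1.75% of all genes, but they overlapped in the values as deposited and after median scaling. No comparison passed, and its changes lay between -0.07 and 0.07 with 95% intervals inside -0.18 and 0.18.

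**Figure D3:**
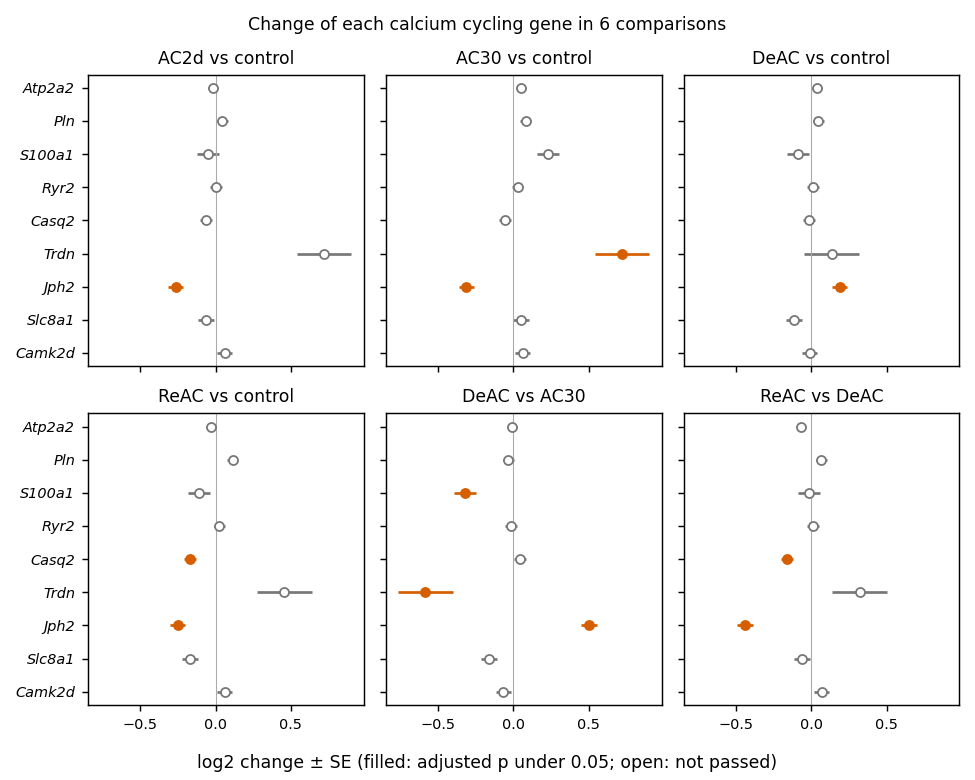
Log2 change ± SE of the 9 calcium cycling genes in 6 comparisons of 2 pools against 2, filled where the limma adjusted p was under 0.05. Jph2 is filled in all 6 panels, with changes from -0.44 to 0.50, Casq2 and Trdn in 2 panels each and S100a1 in 1, while Atp2a2, Pln, Ryr2, Slc8a1 and Camk2d are open throughout.

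Without the mean-variance trend further calls ended, namely Jph2 in DeAC (adjusted p = 0.165) and ReAC (0.0648) against control, Trdn in AC30 against control (0.104) and DeAC against AC30 (0.111), and Casq2 in ReAC against control (0.146) and DeAC (0.292). Trdn in DeAC against AC30 ended after median scaling too (0.109). With the atrial covariate Casq2 in ReAC against DeAC (0.818) and S100a1 in DeAC against AC30 (0.734) did not pass. Over all genes the covariate fit passed 125 and 104 in these comparisons, against 560 and 2478 in the reported fit.

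Groups whose pools do not overlap are common in a design of 2 pools against 2. In AC2d against control this was so for 4 of the 9 genes (43.7% of all genes), in AC30 for 8 (45%), in DeAC for 5 (49.2%) and in ReAC for 7 (55%). It was so for 6 from AC30 to DeAC (52.7%) and for 7 from DeAC to ReAC (46.7%).

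Across the 10 arrays the 9 genes did not move as 1 block. As a description over 10 arrays that fall into 5 groups, Pearson's r between pairs of them ran from -0.79 (Jph2 and Camk2d) to 0.75 (S100a1 and Slc8a1), and it was -0.10 for Atp2a2 and Pln. The genes most like Jph2 over the 10 arrays were Ap1b1 (r = 0.98), Diablo (0.98) and Acot7 (0.98). For Trdn they were Fgl2 (0.97), Sytl2 (0.95) and Lifr (0.95). For Casq2 they were Nacc1 (0.95), Nfyb (0.94) and the transferrin receptor gene Tfrc (0.93), for S100a1 Blcap, Smo and Sec22b (0.94 each), and for Slc8a1 Serpinf1 (0.96), Chrnb4 (0.93) and Smad5 (0.93). These are the highest correlations of all genes and were picked for their size.

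A wider list of calcium handling genes was read beside these 9, and 85 of its 101 genes were measured. The F test passed 28 of the 85, against 22.2% of all genes. In AC2d against control 1 was higher and 2 lower (all genes 0.663% and 1.86%), and in AC30 against control 9 were higher and 4 lower (3.57% and 4.96%). DeAC against control gave 4 higher and 5 lower (4.45% and 3.77%), and ReAC against control 4 higher and 9 lower (5.63% and 5.28%). From AC30 to DeAC 10 were higher and 11 lower (9.85% and 7.45%), and from DeAC to ReAC 1 was higher and 6 lower (1.7% and 2.21%). For the difference between both 2-day responses 0 were higher and 1 lower (0.223% and 0.0768%). The median change of the 85 lay between -0.04 and 0.002 in these comparisons, beside medians of all genes between -0.02 and 0.01. Of the genes named whatever their result, Cacna1c, the pore of the L-type channel, Stim1, a sensor of reticular calcium, and Tnnc1, the calcium sensor of the filaments, passed neither the F test (adjusted p = 0.649, 0.293 and 0.268) nor any comparison.

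Letm1, an ion exchanger of the inner mitochondrial membrane, showed the same ordering of pools as Jph2. It read 9.43 and 9.54 in control, 9.09 and 9.14 in AC2d, 9.06 and 9.13 in AC30, 9.47 and 9.46 in DeAC, and 9.10 and 9.17 in ReAC. The 6 heated pools thus lay below the 4 others, also in the values as deposited and after median scaling. Of the 85 genes of the wider list, 3 had this ordering and 3 the reverse, beside 2.83% and 1.75% of all genes. Letm1 fell by 0.37 ± 0.06 in AC2d (adjusted p = 0.00377, but 0.0764 without AC2d replicate 1) and by 0.39 ± 0.06 in AC30 (0.00116), and it rose by 0.37 ± 0.06 from AC30 to DeAC (0.000555). On return to heat it fell by 0.33 ± 0.06 (adjusted p = 0.00673), a call that ended without DeAC replicate 1 (0.0522), DeAC replicate 2 (0.055) or ReAC replicate 1 (0.101). Of 8 measured genes of mitochondrial calcium, 4 were higher in DeAC than in AC30 (9.85% of all genes were) and the other 4 did not pass. The other three, named after their values were seen, were the uniporter pore gene Mcu (0.53 ± 0.08), the channel gene Vdac1 (0.28 ± 0.04) and the uniporter regulator Micu2 (0.22 ± 0.07), the last of which kept its call in 2 of 10 fits with an array left out.

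Among the genes of the release site, Hrc, a luminal calcium-binding protein, read 10.43 and 10.60 in control and 10.78 and 10.79 in AC30. It rose by 0.27 ± 0.06 in AC30 (adjusted p = 0.0184) and by 0.26 ± 0.06 in ReAC (adjusted p = 0.0179). The AC30 call ended without control replicate 1 (0.0912) or either AC30 pool (0.0914 and 0.0661), and the ReAC call without control replicate 1 (0.105) or ReAC replicate 1 (0.204). Transcripts of Asph encode junctin and also a hydroxylase, and which of them this probe set reads was not tested. Asph rose by 0.33 ± 0.06 in AC30 (adjusted p = 0.00547) and fell by 0.40 ± 0.06 from AC30 to DeAC (0.000631). Both calls ended after median scaling (0.0841 and 0.0928). Jph1, the junctophilin of skeletal muscle, was named after its values were seen. It rose by 0.40 ± 0.07 from AC30 to DeAC as Jph2 did, but it was 0.27 ± 0.07 above control in ReAC, where Jph2 was below (adjusted p = 0.0306, a call kept in 5 of 10 fits with an array left out).

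Calm2 and Calm3 are genes for the same calmodulin protein, and whether their probe sets share signal was not tested. Calm3 read 10.47 and 10.49 in control, 10.13 and 10.16 in AC2d, 10.27 and 10.11 in AC30, 10.26 and 10.25 in DeAC, and 9.94 and 9.90 in ReAC. All 8 pools with a heat history lay below both control pools, and Calm3 fell by 0.56 ± 0.05 in ReAC (adjusted p = 2.5e-05). Its fall of 0.34 ± 0.05 in AC2d (adjusted p = 0.00455) ended without AC2d replicate 1 (0.0855) or AC2d replicate 2 (0.0517). Calm2 averaged 9.95 ± 0.08 (SD, n = 2) in control and lay between 9.53 and 9.64 in the DeAC and ReAC pools. It fell by 0.34 ± 0.05 in DeAC (adjusted p = 0.00174) and by 0.41 ± 0.05 in ReAC (0.000204). Rcan1, an inhibitor of the phosphatase calcineurin, was lowest in AC30 (10.28 and 10.33, control 10.64 and 10.67), where it fell by 0.35 ± 0.04 (adjusted p = 0.000391), and it rose by 0.49 ± 0.04 from AC30 to DeAC (1.1e-05).

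**Figure D4:**
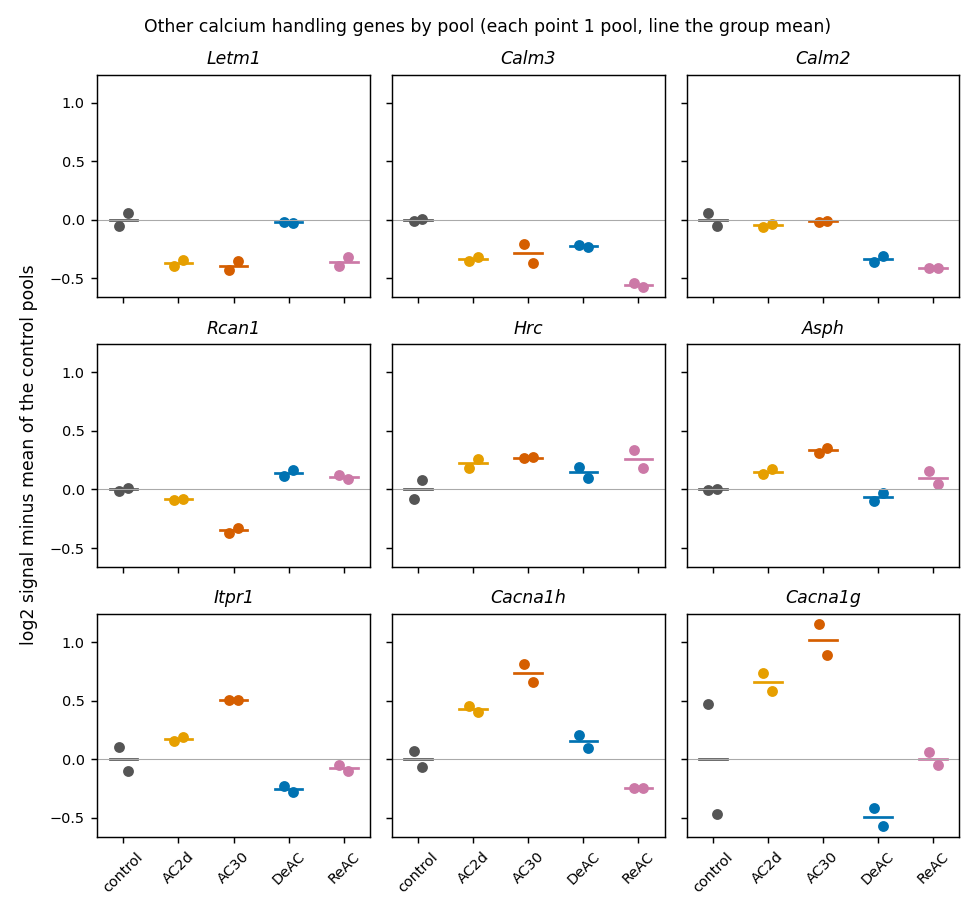
Log2 signal of 9 further calcium handling genes in each pool, less the mean of the control pools (points, 2 pools per group; short lines, group means; the same vertical scale in all panels). Letm1 lies lower in the groups taken from heat, Calm2 and Calm3 are lowest in ReAC, Rcan1 is lowest in AC30, and Itpr1, Cacna1h and Cacna1g are highest in AC30.

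The IP3 receptor gene Itpr1 and the T-type calcium channel genes Cacna1g and Cacna1h were highest in AC30. Itpr1 read 8.78 and 8.58 in control, 9.19 and 9.19 in AC30 and 8.45 and 8.40 in DeAC. It rose by 0.51 ± 0.07 in AC30 (adjusted p = 0.000639) and fell by 0.76 ± 0.07 from AC30 to DeAC (1.07e-05). Cacna1g read 7.78 and 6.85 in control and 8.47 and 8.20 in AC30, and it fell by 1.51 ± 0.21 from AC30 to DeAC (adjusted p = 0.000206). Its AC30 change was 1.02 ± 0.21 (adjusted p = 0.00801), or 0.55 without control replicate 2, and the call ended without AC30 replicate 1 (0.0914). Cacna1h read 7.49 and 7.35 in control, 7.88 and 7.82 in AC2d, 8.23 and 8.08 in AC30, 7.63 and 7.52 in DeAC, and 7.18 and 7.18 in ReAC. It rose by 0.43 ± 0.08 in AC2d (adjusted p = 0.0145) and by 0.74 ± 0.08 in AC30 (0.000201), and the AC2d call ended without control replicate 2 (0.0755), AC2d replicate 1 (0.186) or AC2d replicate 2 (0.102). Sln, sarcolipin, the SERCA inhibitor of the atrium, read 11.94 and 9.23 in control, 12.96 and 12.78 in AC30, 5.79 and 5.73 in DeAC, and 11.39 and 11.49 in ReAC. All 6 atrial markers were higher in AC30 than in control and lower in DeAC than in AC30. The part of atrial tissue in the values of Itpr1, Cacna1g and Cacna1h was not tested beyond the covariate fit, in which the change of Cacna1g from AC30 to DeAC turned to 0.90 (adjusted p = 0.508).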

How the data were processed

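RNA of 10 left ventricle pools was measured on expression arrays after biotin labelling, per the labels' protocols. The authors deposited a table of log2 signals for 27342 probe sets, whose summary and normalization steps are not stated in the labels. Another table deposited by the authors holds signed fold changes against control, treated as a score. Of the probe sets 15097 had 1 gene symbol, 323 several and 11922 none. From there the log2 values were quantile normalized and the brightest single-symbol probe set was kept for each of 14324 genes (499 had more than 1). Group means were fitted over all 10 arrays with limma 3.58.1 in R 4.3.3 (eBayes with a mean-variance trend, 5 residual and 8.31 prior degrees of freedom) and p-values were adjusted by Benjamini-Hochberg over all genes. The labels call the pools biological, and only 2 pools per group limit the precision. The fit was tested on simulated data, in which 200 genes per run were given a change in AC2d against control, over 5 runs. It recovered 8.96% of these genes at a size of 0.25 log2 units, 63.9% at 0.5 and 99.4% at 1. Of the calls made there, 4.98% were false. A gene that did not pass is therefore not shown to be unchanged.

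The 10 genes, the wider list and the marker lists were chosen with earlier results of these data known. All 10 were to be named, with up to 8 genes of the wider list with the smallest F-test p, several fixed names, and the 3 genes most correlated with each listed gene that passed the F test. Alternatives were the deposited values, median scaling, leaving out the 40% dimmest genes, averaged probe sets, no trend, a replicate block, an atrial marker covariate and leaving out each array. With an array left out, the lone pool is assumed to vary like the other groups. Pool numbers shared across groups did not pair the samples. Promoter windows and their coordinates come from RefSeq (GRCr8).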

Additional observations from a re-analysis of the deposited data

Results flagged for a closer look

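The response of Cacna1h, the gene of a T-type calcium channel, to the second 2 days of heat differed from its response to the first. Its log2 signal rose by 0.43 ± 0.08 from control to AC2d and fell by 0.40 ± 0.08 from DeAC to ReAC, and the difference between both changes was -0.83 ± 0.12 (limma interaction contrast, adjusted p = 0.0115). Of the 85 measured genes of the wider calcium list it was the only 1 that passed this test, against 0.3% of all genes. Leaving out single arrays ended the call in 5 of 10 cases, without AC2d replicate 1 (adjusted p = 0.0851), AC2d replicate 2 (0.0741), DeAC replicate 1 (0.0952), ReAC replicate 1 (0.0764) or ReAC replicate 2 (0.0944), with differences from -0.90 to -0.76. Atrial markers were higher in ReAC than in DeAC (5 of 6 passed). With the mean of 5 of them (without Sln) as a covariate the difference was -0.999 (adjusted p = 0.01). In that fit the first change was 0.34 (adjusted p = 0.172) and the second -0.66 (0.352), and neither passed. Over all genes 277 and 125 passed in these comparisons with the covariate, against 362 and 560 in the reported fit.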

How the results depend on the processing

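The 44 values of named genes that passed were recomputed under each of 17 alternatives. Of the values so obtained, 612 kept their direction and their side of the threshold, 131 kept the direction but no longer passed, and 5 turned. These 5 turned with the atrial marker covariate, namely Trdn in AC30 against control (-0.048) and in DeAC against AC30 (1.63), Sln in AC30 against control (-0.14), Itpr1 in DeAC against control (0.093) and Cacna1g in DeAC against AC30 (0.90). Values that had not passed could turn too: Trdn passed in the opposite direction in DeAC against control without control replicate 2 (-0.30) and in ReAC against DeAC with the covariate (-1.27). That fit spends 1 of 5 residual degrees of freedom on a covariate that differs strongly between groups.

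The number of the 9 genes that passed was 1 in AC2d, 2 in AC30, 1 in DeAC and 2 in ReAC against control, 3 in DeAC against AC30, 2 in ReAC against DeAC, 0 for the difference between both heat responses and 5 in the F test. Over all 14324 genes the reported fit passed 362, 1222, 1178 and 1564 against control. It passed 2478 in DeAC against AC30, 560 in ReAC against DeAC, 43 for the difference and 3175 in the F test. With the dimmest genes left out, 2 of the 9 passed in AC2d and 4 in ReAC against control (all genes 425 and 1547 of 8594). With the atrial covariate 0 of the 9 passed in AC2d, 0 in AC30 and 5 in ReAC against control (277, 227 and 1807 of 14324 genes). There was 1 each in DeAC against AC30, in ReAC against DeAC and for the difference between responses (104, 125 and 139 genes). With median scaling 0 of the 9 passed in AC2d and 1 in ReAC against control (Pln, higher), where 149 and 1336 of all genes did. The number was 1 in DeAC against AC30 (2365 genes), 1 in ReAC against DeAC (213 genes) and 3 in the F test. Without the trend 0 of the 9 passed in AC2d, 1 in AC30, 0 in DeAC and 0 in ReAC against control (105, 541, 558 and 1058 genes). The number was 1 in ReAC against DeAC (160 genes) and 1 in the F test. The deposited values gave 1 in ReAC against DeAC (365 genes) and 3 in the F test. F-test counts over all genes are not given for the alternatives. Median scaling moved the median change of all genes to 0.075 in DeAC and 0.056 in ReAC against control. In DeAC against AC30 it was 0.081. The reported fit had 0.0006, -0.006 and 0.006 there. In the other comparisons the median after this scaling lay between -0.02 and -0.002. The cause of the shifts in the number of genes that passed was not tested.

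With 1 array left out, the number of the calcium cycling genes that passed varied in each comparison and in the F test. The number over all genes varied in each comparison too, so the former cannot be read apart from it. Such a fit leaves 1 pool in a group, and its counts are not given. Same-numbered pools correlated from -0.08 to 0.21 in their deviations. With the replicate block 2 of the calcium cycling genes passed in AC2d against control, where 386 of all genes did (362 in the reported fit).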

Other observations

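Some genes of the wider calcium list were picked after their values were seen and are given as values. Atp1b1, the beta subunit of the sodium pump, read 11.13 and 10.99 in control and 10.72 and 10.74 in ReAC, a fall of 0.33 ± 0.05 (limma, adjusted p = 0.00101). Mylk3, the cardiac myosin light chain kinase, read 11.25 and 11.20 in control and 11.48 and 11.46 in ReAC, a rise of 0.25 ± 0.04 (adjusted p = 0.00206). Both calls held with each array left out, with highest adjusted p of 0.0187 and 0.0306. The authors' deposited table gives signed folds of 3.65 in AC2d, 4.92 in AC30, -28.7 in DeAC and 1.88 in ReAC for Sln.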
